A study of Mus musculus with 15 samples.

Results

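The Ly6 genes encode small surface proteins with a disulphide-bonded three-finger fold, most of them held in the membrane by a GPI anchor. The 7 genes described here are Ly6i, Ly6a, Ly6c1, Ly6c2, Ly6e, Ly6g and Ly6d, all on mouse chromosome 15. They were chosen by name with earlier results of these data in view, from a table of 57010 genes, and each was found once in the count and TPM tables. Immunologists use several of them as surface labels: Ly6c and Ly6g proteins form the Gr-1 antigen of monocytes and neutrophils, and Ly6a is the stem cell antigen Sca-1, also present on vascular endothelium and raised by interferon. Ly6e is broadly expressed and raised by interferon, Ly6i is a close relative of Ly6a reported in myeloid cells, and Ly6d marks early B-lineage cells and stratified epithelium.

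RNA from lungs of C57BL/J mice was sequenced in 15 libraries. Mice of the silica_DMSO group (n = 4) had received silica by the nose and dimethyl sulfoxide (DMSO, an organic solvent) a day later. The silica group (n = 3) had received silica, the DMSO group (n = 4) DMSO, and the control group (n = 4) physiological saline, and lungs were taken after 30 days. The labels give no age or sex and do not say whether each library is a separate mouse, so p-values measure the spread between these libraries, which may be technical. The title of the series asks about an inhibitory effect of DMSO on a response to mine dust.

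Of the libraries labelled lung, 3 carried thymus RNA: DMSO 7, silica_DMSO 4 and silica_DMSO 6. Summed over 9 thymocyte markers their level was 2579 to 3246 TPM (transcript level scaled to gene length and library total), against 1.75 to 17.5 TPM in the other 12. Foxn1 and Rag2, which define thymic epithelium and recombining lymphocytes, were listed at 0 in all 12. These 12 are called lung libraries below, and the 3 thymus-like libraries are given apart. A further 5 lung libraries (silica_DMSO 5, silica 7, DMSO 1, DMSO 4 and control 1) drew 11.5% to 24.2% of their counts from genes over 3000 bases long, against 34.0% to 44.9% in the other 7 lung libraries. They are called short-gene libraries and the other 7 long-gene libraries. Library totals ran from 17434649 to 20829960 estimated counts.

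The sequences show why the members must be read with care: neighbouring genes of the cluster are near copies. The first 150 coding bases of the pairs closest in coding sequence are shown here, read from GENCODE M21 transcripts (GRCm38, chromosome 15), with capitals at the positions where the members of a pair differ.
Ly6c1: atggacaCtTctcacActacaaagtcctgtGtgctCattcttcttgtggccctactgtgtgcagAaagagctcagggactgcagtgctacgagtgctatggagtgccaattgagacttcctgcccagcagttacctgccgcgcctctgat
Ly6c2: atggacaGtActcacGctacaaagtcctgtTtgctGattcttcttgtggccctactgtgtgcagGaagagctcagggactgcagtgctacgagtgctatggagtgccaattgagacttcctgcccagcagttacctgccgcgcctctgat
Ly6i: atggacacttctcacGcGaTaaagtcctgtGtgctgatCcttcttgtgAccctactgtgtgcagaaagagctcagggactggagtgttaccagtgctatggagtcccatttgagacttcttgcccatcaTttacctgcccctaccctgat
Ly6a: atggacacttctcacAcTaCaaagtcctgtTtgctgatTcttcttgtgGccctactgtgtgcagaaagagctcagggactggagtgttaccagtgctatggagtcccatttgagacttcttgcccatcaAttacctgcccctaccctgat
In this stretch Ly6c1 and Ly6c2 differ at 6 positions, and Ly6i and Ly6a at 7. Over the whole coding sequence Ly6c1 and Ly6c2 are identical at 384 of 393 aligned bases (97.7%), and Ly6i and Ly6a at 347 of 402 (86.3%). Of all 50-base stretches of the Ly6c2 transcript 33.0% also occur in a transcript of another gene, against 23.8% for Ly6c1, 11.2% for Ly6a, 8.93% for Ly6i and 0.448% for Ly6g. The Ly6e transcript searched did not have the deposited gene length, unlike those of the other members. For Ly6e and Ly6d no 50-base stretch was found in another gene. The deposited counts show the same division: they were not whole numbers in all 15 libraries for Ly6a, Ly6c1 and Ly6c2 and in 9 for Ly6i, and were whole in all 15 for Ly6e, Ly6g and Ly6d. The levels of Ly6c1 and Ly6c2, and in part those of Ly6i and Ly6a, therefore depend on how the authors' software divided shared reads.

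Across the 12 lung libraries the members spanned a wide range of levels. Ly6a was highest at 927 ± 325 TPM (SD, n = 12), followed by Ly6e at 642 ± 261 TPM and Ly6c1 at 535 ± 254 TPM. Ly6i averaged 139 ± 128 TPM, Ly6c2 85.6 ± 78.3 TPM, Ly6d 50.6 ± 17.5 TPM and Ly6g 0.687 ± 0.820 TPM. The order of neighbours was not fixed in every library: Ly6a was above Ly6e in 10 of 12, Ly6e above Ly6c1 in 8 of 12, Ly6i above Ly6c2 in 5 of 12 and Ly6c2 above Ly6d in 9 of 12. Ly6c1 was above Ly6i, and Ly6d above Ly6g, in all 12.

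Ly6i had the highest fold change of the 7 members between lungs given silica and those given saline. It stood at 279.8, 339.8 and 222 TPM in the silica libraries 1, 2 and 7, against 4.58, 24.1, 14.7 and 14.3 TPM in the control libraries 1, 2, 4 and 7. The groups did not overlap, and the mean of 281 ± 58.9 TPM in silica lungs (SD, n = 3) was 19.5 times the mean of 14.4 ± 7.99 TPM in control lungs (SD, n = 4). In counts, Ly6i had 2382, 3779 and 4154 estimated counts in silica libraries, against 121, 254, 130.01 and 171 in control libraries. The fitted log2 fold change was 4.39 ± 1.07 (SE, edgeR on the 12 lung libraries), the 62nd highest of 17630 genes. The choice of the members is taken to have used this contrast, so these values describe it and no test is drawn from them.

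**Figure D1:**
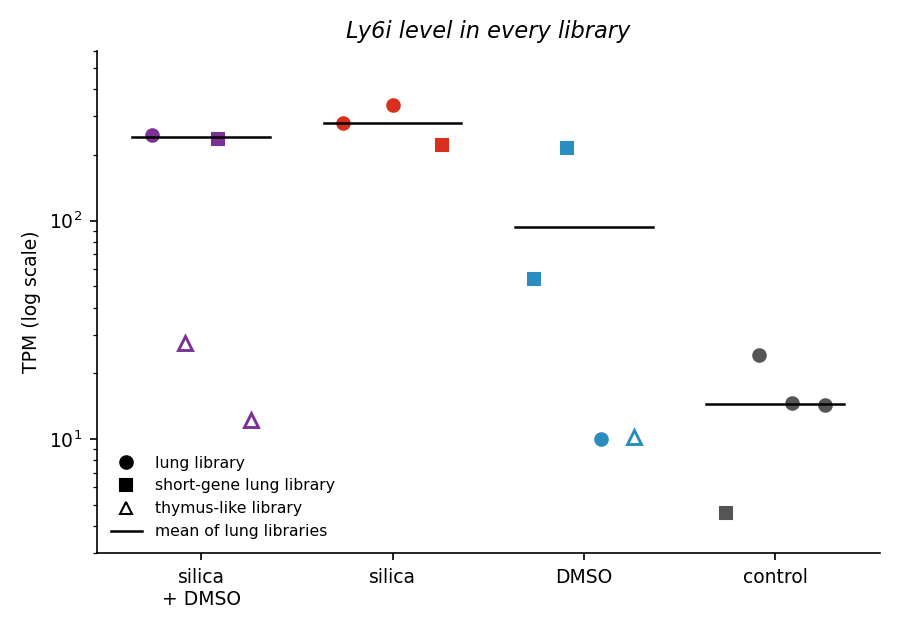
Ly6i level in TPM (log axis) in each of the 15 libraries by group; circles and squares are lung libraries (squares are short-gene ones), open triangles thymus-like libraries, and bars the means of the lung libraries. All 5 lung libraries given silica lie between 222 and 339.8 TPM, and DMSO 4, at 216 TPM, is the unexposed library closest to them.

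In TPM the silica_DMSO lungs carried Ly6i at a level close to that of silica lungs. It stood at 247 and 238 TPM in silica_DMSO 2 and 5, against 54.0, 216 and 10.02 TPM in DMSO 1, 4 and 6. On the TPM scale the groups did not overlap, whereas in CPM scaled by edgeR's TMM factors (normalised CPM, not corrected for length) silica_DMSO had 113 and 675, and DMSO 48.5, 375 and 6.02, so that the ranges overlapped. With so few libraries, and no share of all genes with such a gap beside it, nothing is drawn from the gap in TPM. The log2 fold change of 1.46 ± 1.15 (SE) did not pass edgeR's test (adjusted p = 1.0). It was -0.34 ± 1.43 without silica_DMSO 5 and 3.88 ± 1.02 without DMSO 4. In the thymus-like libraries Ly6i was at 27.5 TPM in silica_DMSO 4, 12.3 TPM in silica_DMSO 6 and 10.2 TPM in DMSO 7, close to the 4.58 to 24.1 TPM of control lungs.

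Silica_DMSO and silica lungs could not be told apart for Ly6i. The mean was 242 ± 6.80 TPM in silica_DMSO (SD, n = 2) and 281 ± 58.9 TPM in silica (SD, n = 3), and the log2 fold change in normalised counts was 1.24 ± 1.15 (SE; edgeR adjusted p = 0.997). It was -0.13 ± 0.82 in edgeR with an offset per library for gene length. With limma-trend on log2(TPM + 1) it was -0.19 ± 0.97, on a scale where the median of all genes was -0.48. Without silica_DMSO 5 it was -0.55 ± 1.45. An SE near 1 leaves room for a doubling or a halving, so the comparison does not show that DMSO left Ly6i as it was.

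Ly6i in the DMSO group depended on the library. It stood at 54.0 and 216 TPM in DMSO 1 and 4, both short-gene libraries, and at 10.02 TPM in DMSO 6, against 4.58 to 24.1 TPM in control lungs. The log2 fold change was 4.17 ± 1.06 (SE; edgeR adjusted p = 0.513). It was 1.79 ± 0.77 without DMSO 4, 1.91 ± 0.82 with limma-trend on log2(TPM + 1), and 2.49 ± 0.70 with the offset for gene length. Endothelial markers (17 genes, none at 0 in a whole group) ran in the opposite order to Ly6i in these libraries. Summed they reached 1095, 372 and 2559 TPM in DMSO 1, 4 and 6, against 2411 to 3671 TPM in control lungs. Neutrophil markers (15 genes) summed to 1227 to 2519 TPM in DMSO lungs and 418 to 1031 TPM in control lungs. Their part in the Ly6i values was not tested, and in bulk tissue fewer cells of a type cannot be told from less RNA per cell.

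Within the 7 long-gene lung libraries the Ly6i levels of lungs with and without silica stood far apart. They were 279.8, 339.8 and 247 TPM in silica 1, silica 2 and silica_DMSO 2, against 24.1, 14.7, 14.3 and 10.02 TPM in control 2, control 4, control 7 and DMSO 6. Among the 5 short-gene libraries they were 222 and 238 TPM in silica 7 and silica_DMSO 5, against 54.0, 216 and 4.58 TPM in DMSO 1, DMSO 4 and control 1. In TPM the gap between lungs with and without silica was wide in the first set and narrow in the second, where DMSO 4 nearly reached the silica libraries. In normalised CPM DMSO 4, at 375, exceeded 4 of the 5 silica-exposed lung libraries, so the short-gene set then had no gap. The silica and control libraries of both sets belong to the contrast taken to have been used for the choice, so these gaps describe it. The mean of both silica comparisons gave Ly6i a log2 fold change of 2.93 ± 0.78 (SE), which shares its libraries with the contrast used for the choice. The test of whether the silica change differed with DMSO gave -2.93 ± 1.59 (edgeR adjusted p = 1.0), and -0.53 ± 1.15 without DMSO 4.

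The genes whose log2 CPM followed Ly6i most closely over the 12 lung libraries were Ccl9 (Pearson r = 0.975), a chemokine of myeloid cells, C1qc (r = 0.970), a chain of complement C1q made by macrophages, and Lcn2 (r = 0.969), an iron-sequestering protein of neutrophils and epithelium. These coefficients describe 12 libraries that share the treatment groups and the short-gene difference. Neutrophil markers summed to 2110, 4527 and 2275 TPM in silica lungs, against 418 to 1031 TPM in control lungs, and macrophage markers (12 genes) to 10277 to 23215 TPM in silica lungs, against 4308 to 10214 TPM in control lungs. Neither list overlapped between these groups, though the macrophage sums of silica 7 and control 7 nearly met. No marker of either list was at 0 throughout silica or control lungs. Silica_DMSO 5, with Ly6i at 238 TPM, went the other way: its neutrophil markers summed to 954 TPM and its macrophage markers to 6468 TPM, both inside the control ranges. In silica_DMSO 2 they summed to 3031 and 11029 TPM. The summed levels are carried by abundant genes, Lcn2 among the neutrophil markers (679.9 TPM on average over the lung libraries) and Lyz2 among the macrophage markers (9730 TPM), and their part in the Ly6i values was not tested.

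Ly6a and Ly6c1, the abundant members of lung endothelium, followed each other closely, and their levels overlapped between silica and control lungs. Ly6a stood at 665, 1585 and 681 TPM in silica lungs, against 513, 1138, 1074 and 951 TPM in control lungs. Ly6c1 stood at 475, 1039 and 386 TPM in silica lungs, against 235, 751, 745 and 587 TPM in control lungs. For both, silica 2 was high and control 1 low, and 2 of 3 silica values lay inside the control range. Their log2 fold changes were 0.21 ± 0.52 for Ly6a and 0.25 ± 0.41 for Ly6c1 (SE), both smaller than their errors. Without silica 2 they were -0.20 ± 0.59 for Ly6a and -0.19 ± 0.44 for Ly6c1. Over the 12 lung libraries Ly6a was the gene most like Ly6c1 (r = 0.927), followed by Vstm2a (r = 0.903) and Apod (r = 0.897). The Ly6a and Ly6c1 transcripts share some 50-base stretches, and the part of shared reads in their correlation was not tested.

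The spread of these members was uneven in the other groups. Ly6a had an SD of 69.4 TPM in DMSO lungs (n = 3) and 548 TPM in silica_DMSO lungs (n = 2). Ly6a reached 1414 and 639 TPM in silica_DMSO 2 and 5, against 773, 788 and 900 TPM in DMSO 1, 4 and 6. Ly6c1 reached 763 and 242 TPM in silica_DMSO 2 and 5, against 394, 241 and 565 TPM in DMSO 1, 4 and 6. In TPM the higher value of each silica_DMSO pair came from the long-gene library and the lower from the short-gene one. The order was the reverse in normalised CPM. In silica_DMSO 2 and 5 Ly6a then had 715 and 1726, and Ly6c1 299 and 605. DMSO against control gave log2 fold changes of 0.81 ± 0.51 for Ly6a and 0.29 ± 0.41 for Ly6c1, neither past the test (adjusted p = 0.518 and 0.718 from edgeR), and with the offset for gene length they were -0.06 ± 0.38 and -0.46 ± 0.45. Endothelial markers summed to 1236 to 2091 TPM in silica lungs, against 2411 to 3671 TPM in control lungs, with no overlap, while the levels of Ly6a and Ly6c1 overlapped between these groups.

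The genes most like Ly6a were Tango2 (r = 0.952), Ube2l6 (r = 0.948), which encodes the conjugating enzyme for the interferon-induced modifier ISG15, and Usp18 (r = 0.941), the protease that removes it. The list of 18 genes raised by type I interferon summed to 1845 and 3461 TPM in silica_DMSO 2 and 5, the second a short-gene library. In silica 1, 2 and 7 it summed to 574, 1350 and 754 TPM. In DMSO 1, 4 and 6 it summed to 531, 791 and 631 TPM, and in control lungs to 506 to 846 TPM. Ifi27l2a was its most abundant gene, at 583 TPM on average over the lung libraries. The list of 19 genes raised by interferon gamma summed to 495 to 1162 TPM in silica and 271 to 717 TPM in control lungs. Ly6a itself was 1026 ± 548 TPM in silica_DMSO (SD, n = 2) and 977 ± 527 TPM in silica (SD, n = 3), with overlapping ranges. In normalised CPM it was 1221 ± 715 in silica_DMSO (SD, n = 2) and 634 ± 334 in silica (SD, n = 3), and the log2 fold change of 0.94 ± 0.61 (SE) was not called by edgeR (adjusted p = 0.997).

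Ly6e, likewise raised by interferon in other settings, showed 809.8, 1028 and 510 TPM in silica lungs, against 728, 632, 939 and 602 TPM in control lungs. It showed 939 and 196 TPM in silica_DMSO 2 and 5, against 365, 333 and 626 TPM in DMSO 1, 4 and 6. The ranges overlapped in both pairs, and the 4 lowest values all came from short-gene libraries. In normalised CPM, which is not corrected for length, the same libraries did not stand low: silica_DMSO 5 had 1294 and DMSO 4 had 1672, against 853 to 1280 in control lungs. The log2 fold change of Ly6e was 0.26 ± 0.39 in silica against control and 0.21 ± 0.39 in DMSO against control (SE). The second became -0.75 ± 0.49 on log2(TPM + 1), a scale on which the median of all genes was itself at -0.45 in that comparison. Its closest genes were Xpnpep1 (r = 0.935), Tmem101 (r = 0.902) and Tmem176a (r = 0.881).

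**Figure D2:**
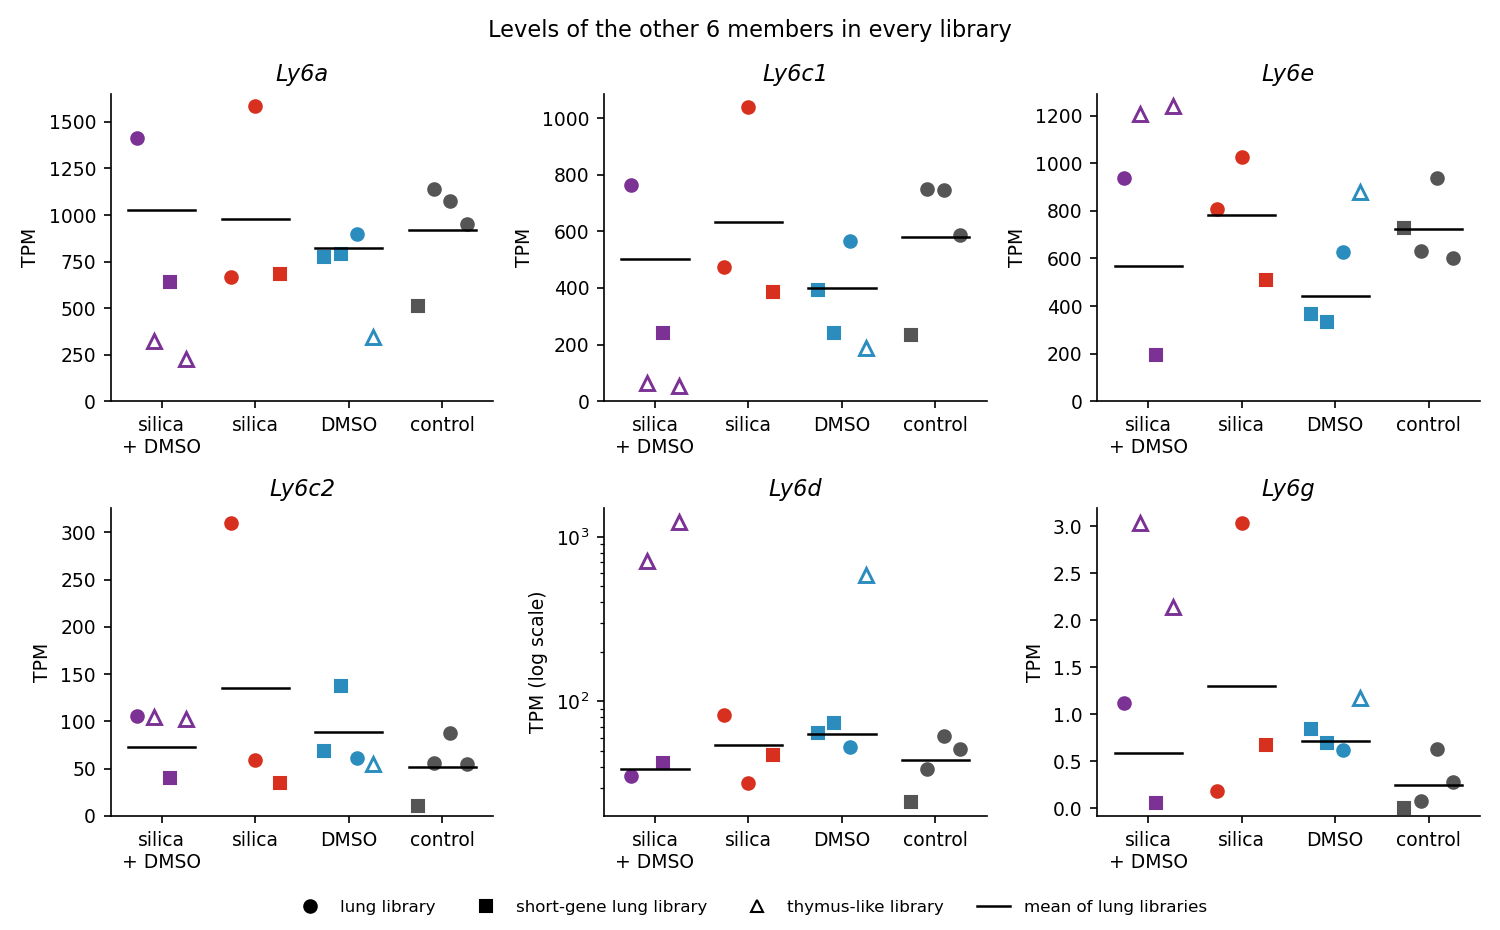
Levels in TPM of the other 6 members in each of the 15 libraries by group, with a log axis for Ly6d; symbols and bars are as for Ly6i. Ly6a and Ly6c1 are lowest in the thymus-like libraries, Ly6d is at 588 to 1223 TPM there and at most 83.0 TPM in all lung libraries, and silica 1 stands apart for Ly6c2 at 310.5 TPM.

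Ly6c2, the form of Ly6C that inflammatory monocytes carry, had 1 silica library that stood apart. It stood at 310.5, 59.1 and 35.2 TPM in silica 1, 2 and 7, against 10.6, 55.6, 88.0 and 54.8 TPM in control 1, 2, 4 and 7. Only silica 1 lay above the control lungs, and silica 7 lay below 3 of 4 control values in TPM but above 3 of 4 in normalised CPM. The log2 fold change of 1.15 ± 0.69 (SE) was 0.31 ± 0.72 without silica 1. In silica_DMSO 2 and 5 Ly6c2 was at 105 and 39.99 TPM, against 68.7, 138 and 61.3 TPM in DMSO 1, 4 and 6. In normalised CPM DMSO 4 was the highest lung library at 243.5, against 110.9 in silica 1 and 102.5 in silica_DMSO 5. The DMSO group gave a log2 fold change of 2.08 ± 0.70 over control (edgeR adjusted p = 0.513), and 0.83 ± 0.61 without DMSO 4.

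Within a library Ly6c2 was usually a small share of the summed Ly6c1 and Ly6c2 level. The share was 39.5%, 5.39% and 8.35% in silica 1, 2 and 7, against 4.32%, 6.89%, 10.6% and 8.53% in control 1, 2, 4 and 7. It was 12.1% and 14.2% in silica_DMSO 2 and 5, against 14.9%, 36.4% and 9.78% in DMSO 1, 4 and 6. Silica 1 and DMSO 4 stood apart. In the thymus-like libraries silica_DMSO 4 and 6 it was 61.9% and 66.2%, so Ly6c2 exceeded Ly6c1 there, and in DMSO 7 it was 22.7%. These shares depend on how reads common to both genes were divided. Over the 12 lung libraries Ly6c1 and Ly6c2 had r = 0.222, and the genes most like Ly6c2 included Spns3 (r = 0.941) and Rint1 (r = 0.932). Markers of classical monocytes (14 genes) summed to 1628, 2545 and 2389 TPM in silica 1, 2 and 7, so the silica library highest in Ly6c2 was the lowest of the 3 for this list. Silica 1 was the highest of the 3 for other lists. Its macrophage markers summed to 23215 TPM, against 12997 and 10277 TPM in silica 2 and 7, and its genes raised by interferon gamma to 1162 TPM, against 742 and 495 TPM. Its B cell markers summed to 334 TPM, against 81.8 and 112 TPM in silica 2 and 7, and its plasmacytoid dendritic cell markers to 125 TPM, against 49.5 and 31.7 TPM. Their part in the Ly6c2 value was not tested. In control lungs the classical monocyte markers summed to 965 to 1695 TPM, and none of the 14 was at 0 throughout either group.

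**Figure D3:**
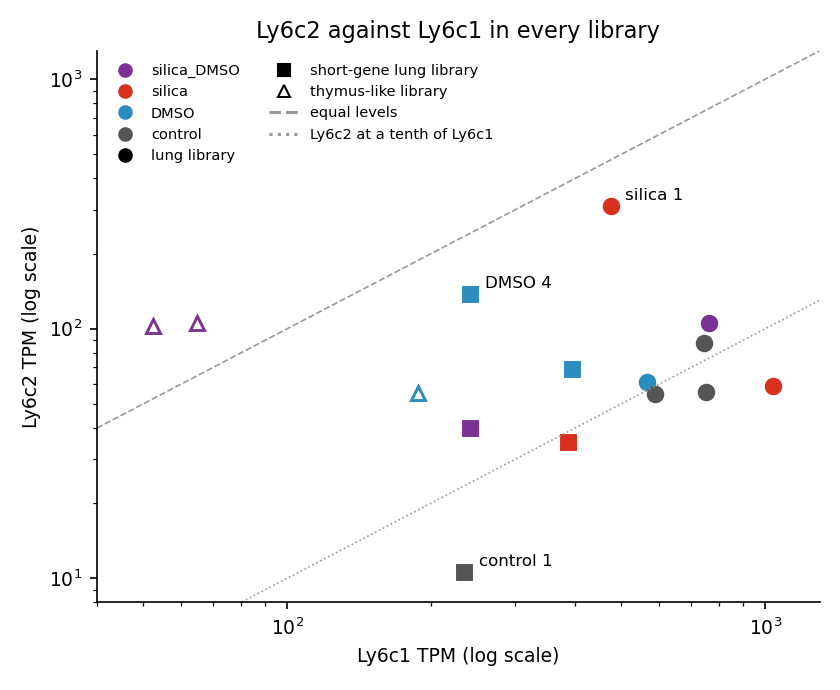
Ly6c2 against Ly6c1, both in TPM on log axes, with 1 symbol per library, colour for the group and shape as before; the dashed line marks equal levels and the dotted line a Ly6c2 level 10 times lower. Most lung libraries lie near the dotted line, silica 1 and DMSO 4 lie above it, and the silica_DMSO libraries 4 and 6, both thymus-like, lie above the dashed line.

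Ly6g, the antigen of mature mouse neutrophils, was close to undetected. It had 2, 40 and 15 counts (0.19, 3.04 and 0.68 TPM) in silica 1, 2 and 7, against 0, 1, 7 and 4 counts (0 to 0.63 TPM) in control lungs. Silica 2 held most of the silica counts, and silica 1 lay inside the control range. The log2 fold change was 2.74 ± 1.07 (SE), and 1.57 ± 1.14 without silica 2. In silica_DMSO 2 and 5 there were 15 and 2 counts, against 17, 20 and 9 in DMSO 1, 4 and 6. The DMSO counts all exceeded those of control lungs, and the log2 fold change in DMSO against control was 2.76 ± 1.07 (SE; edgeR adjusted p = 0.513). In TPM, DMSO 6, at 0.62, lay inside the control range. Nothing is drawn from the gap in counts, given so few libraries and no share of all genes beside it. The test of whether the silica change differed with DMSO gave -3.89 ± 1.68 (edgeR adjusted p = 1.0). Neutrophil markers were plentiful in the same libraries, S100a9 at 535 TPM and S100a8 at 383 TPM on average over the lung libraries. At these counts the genes most like Ly6g, Snx12 (r = 0.900), Ugt8a (r = 0.875) and Sqle (r = 0.868), are named by rule only.

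Ly6d separated thymus-like from lung libraries and not silica from control lungs. It stood at 588 TPM in DMSO 7, 712 TPM in silica_DMSO 4 and 1223 TPM in silica_DMSO 6, against 24.5 to 83.0 TPM in the 12 lung libraries. The mean of the 3 was 16.6 times that of the lung libraries. Among lung libraries it was 83.0, 32.2 and 47.1 TPM in silica 1, 2 and 7, against 24.5, 38.7, 61.3 and 51.7 TPM in control 1, 2, 4 and 7. The log2 fold change in silica against control was 0.36 ± 0.63 (SE), 0.02 ± 0.72 without silica 7 and -0.31 ± 0.30 with limma-voom. In DMSO against control it was 1.64 ± 0.63 (edgeR adjusted p = 0.513) and 0.88 ± 0.62 without DMSO 4. In TPM the DMSO values of 64.3, 74.0 and 52.8 overlapped those of control lungs, whereas in normalised CPM 23.6 to 115 in DMSO lungs lay above 15.9 to 23.2 in control lungs. In silica_DMSO 2 and 5 Ly6d was at 35.1 and 42.5 TPM, below all 3 DMSO lung libraries, but in normalised CPM 13.5 and 92.1 overlapped them. Each of these gaps rests on few libraries and has no share of all genes beside it, so nothing is drawn from them. The genes most like Ly6d over the lung libraries were Ttc4 (r = 0.969), Ndufaf6 (r = 0.959) and Prelid2 (r = 0.952).

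Of the other members, Ly6a and Ly6c1 also lay outside the lung range in the thymus-like libraries, which is a description since those libraries were told apart by their expression. Ly6a stood at 343, 321 and 228 TPM in DMSO 7, silica_DMSO 4 and silica_DMSO 6, below the 513 to 1585 TPM of all 12 lung libraries. Ly6c1 stood at 188, 64.8 and 52.4 TPM, also below all 12, and endothelial markers summed to 113 to 818 TPM, against 372 to 3671 TPM in lung libraries. Ly6e, at 879, 1208 and 1242 TPM, overlapped the lung range, as did Ly6c2 at 55.0, 105 and 103 TPM. Along with Ly6d, markers of squamous and basal epithelium (13 genes) summed to 86.1 to 344 TPM in thymus-like libraries, against 1.12 to 12.8 TPM in lung libraries. B cell markers (10 genes) summed to 79.0 to 129.8 TPM in thymus-like and 42.1 to 338 TPM in lung libraries, and T cell markers (13 genes) to 4465 to 5927 TPM in thymus-like and 49.7 to 218 TPM in lung libraries. Plasmacytoid dendritic cell markers (8 genes) summed to 321 to 337 TPM in thymus-like and 10.8 to 125 TPM in lung libraries. Which of these cells held the Ly6d transcripts was not tested.

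**Figure D4:**
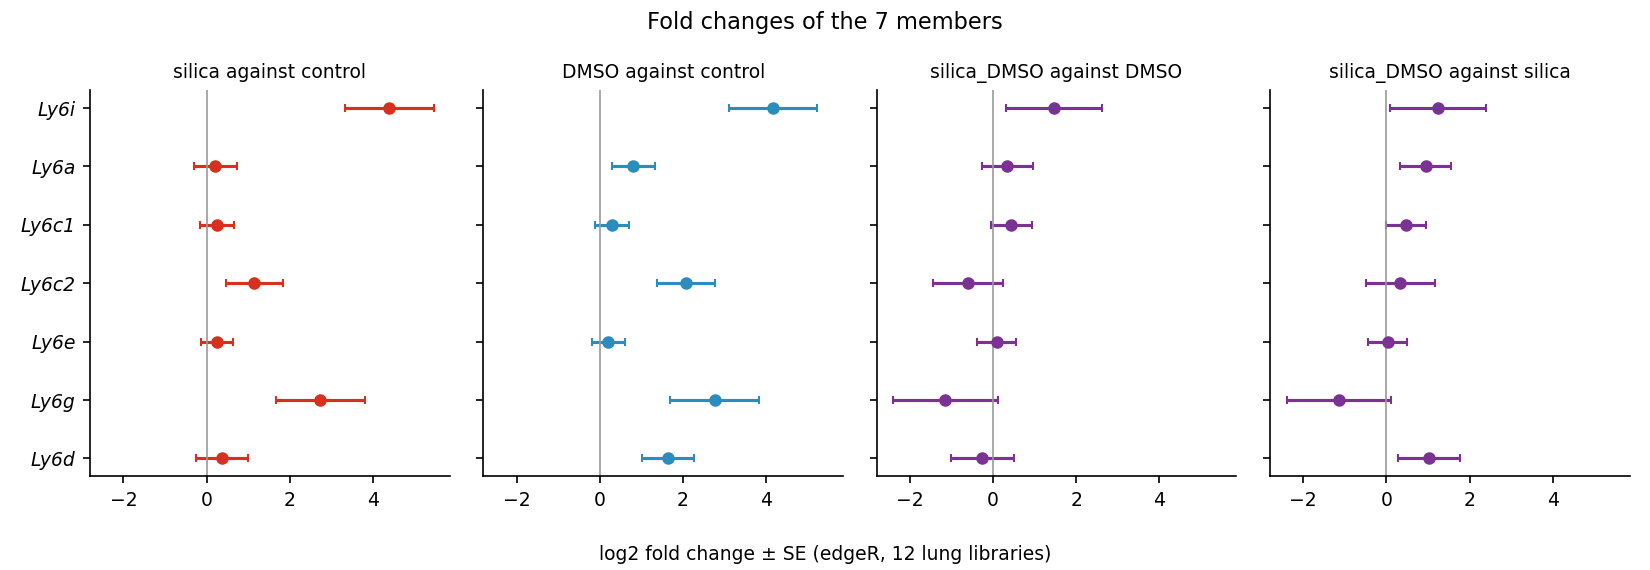
Log2 fold changes (points) with their SE (bars) of the 7 members in 4 comparisons, from edgeR on the 12 lung libraries. Ly6i has the highest value in silica against control (4.39) and in DMSO against control (4.17), and none of the 28 values passed the adjusted threshold.

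No member was called in any of the 6 comparisons at an adjusted p under 0.05 (edgeR's quasi-likelihood test over 17630 genes). In silica against control 0 of 7 members were called, where 0.0113% of all genes were called, and 2 members had an unadjusted p under 0.05, as did 1055 of 17630 genes. In DMSO against control 0 of 7 were called, against 0.0% of all genes, with 4 members and 1519 genes under the unadjusted threshold. In silica_DMSO against DMSO and in silica_DMSO against silica 0 of 7 were called, against 0.0% of all genes in each, and no member had an unadjusted p under 0.05, against 335 and 342 genes. The silica effect averaged over both pairs called 0 of 7 members and 0.0908% of all genes, with 1 member and 742 genes under the unadjusted threshold. Its difference with DMSO called 0 of 7 members and 0.0% of all genes, with 1 member and 485 genes under that threshold. With so few genes called anywhere, the absence of members is no result about the family. The median log2 fold change of the 7 members was 0.36 in silica against control, where that of all genes was -0.03. In DMSO against control it was 1.64, where that of all genes was -0.04. The fit is not corrected for length, DMSO 1 and 4 are short-gene libraries, and the members were chosen with earlier results known. In DMSO against control the sign turned for Ly6a, Ly6c1 and Ly6e with the offset for gene length. Without DMSO 4 Ly6i was 1.79, Ly6c2 0.83 and Ly6d 0.88. Ly6g stayed at 2.25 or more whichever library was left out. The medians are no result about the family.

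The calls differed between fits, which also differed in their libraries, filter or test. In silica against control, the contrast taken to have been used for the choice of members, calls stand beside the share of all genes called and nothing is read from them. A fit of only the 7 silica and control libraries called Ly6i in silica against control, along with 0.249% of 16467 genes, with a log2 fold change of 4.41 ± 0.36. The same comparison without short-gene libraries also called Ly6i, with 0.268% of genes and 4.18 ± 0.39. DESeq2's Wald test called Ly6i in silica against control (0.846% of genes), in the averaged silica effect (0.76%) and in DMSO against control (0.343%). Limma-voom with quality weights called Ly6i, Ly6g and Ly6e in silica against control, with 7.57% of all genes, and Ly6i, Ly6c2, Ly6g and Ly6d in DMSO against control, with 48.1%. Neither DESeq2 nor limma-voom called a member in the remaining comparisons. With all 15 libraries in the edgeR fit no member was called, and the Ly6i values were 4.41 ± 1.59 in silica against control and 0.89 ± 1.36 in silica_DMSO against DMSO.

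Of 36 other genes of the Ly6 and uPAR family, 18 passed the filter on low counts and none was called in any of the 6 comparisons (edgeR). Of these 18, 2 had an unadjusted p under 0.05 in silica against control, where 1055 of 17630 genes had one, and 3 in DMSO against control, where 1519 had one. There were 1 in silica_DMSO against DMSO, 2 in silica_DMSO against silica, 0 in the averaged silica effect and 3 in its difference with DMSO. Their median log2 fold change was 0.07 in silica against control and 0.84 in DMSO against control, also without a correction for length. The most abundant was Gpihbp1, which carries lipoprotein lipase across capillary endothelium, at 206 ± 89.8 TPM in silica (SD, n = 3) and 361 ± 101 TPM in control lungs (SD, n = 4). Its values of 129 to 305 TPM in silica lungs and 296 to 511 TPM in control lungs overlapped. Lypd2 averaged 159 TPM over the lung libraries and ranged from 40.7 to 456 TPM. Plaur, the receptor of urokinase, stood at 47.4 ± 11.7 TPM in silica and 40.1 ± 14.8 TPM in control lungs. Cd59a, an inhibitor of complement lysis, averaged 7.35 TPM over the lung libraries, Ly6g6d 7.16 TPM and Lynx1, a modulator of nicotinic receptors, 5.93 TPM.

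RefSeq promoter windows (GRCm38.p6, 300 bases each) were found for Ly6c1, Ly6c2 and Ly6g, with a pair of start sites for each. None of these windows held the letters of an interferon response element core (GAAANNGAAA), a gamma-activated site (TTCNNNGAA) or an NF-kB core (GGGNNNTCC) on either strand, which 3.44%, 8.3% and 17.8% of 32851 promoters held. Motifs of these lengths arise often in any sequence, and nothing is drawn from their absence here.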

How the data were processed

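Bowtie 0.12.2 and the build mm8 are named in the submitters' processing notes. The counting program was not given in the sources used here. In the labels the extraction text describes retinas although the tissue field says lung. The authors deposited expected counts and TPM per gene and library, with gene lengths (an other value given by the authors) and 8 columns of group means, not used here. The members and gene lists were chosen with earlier results of these data known.

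Expected counts were rounded (changing a total by at most 53.9), filtered with filterByExpr (smallest count 10, total 15) and scaled by TMM. Group means of the 12 lung libraries, without the 3 thymus-like ones, were fitted with edgeR 4.0.16's robust quasi-likelihood test in R 4.3.3, adjusted by Benjamini and Hochberg over 17630 genes and called at an adjusted p under 0.05. SE is the fold change divided by the root of F. Alternatives used limma 3.58.1 (pseudocount 1 or 0.1 on TPM) and DESeq2 1.42.0, other filters, a gene length offset, a short-gene term, all 15 libraries, the groups compared alone, a replicate block, and each lung library left out in turn. Table handling used data.table (version 1.17.8), sequences Biopython 1.88 and figures matplotlib 3.10.9 in Python 3.11.15. The count model was tested on simulated data. The named genes are the 7 members, the 3 genes of highest correlation with each (log2 CPM, prior count 2, no predicted genes), the 6 most abundant other family genes, and leading genes of marker lists. Of the genes this rule names, 1 is not reported here.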

Additional observations from a re-analysis of the deposited data

Results flagged for a closer look

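In groups of 4 libraries as labelled, 3 member values lay far from the others of their group, among 21 sets of values examined, where chance flags about 1 in 20. Ly6d was 588.49 TPM in DMSO 7, a thymus-like library, against 52.8 to 74.0 TPM in the other DMSO libraries. Ly6c2 was 39.99 TPM in silica_DMSO 5, against 103 to 105 TPM in the other silica_DMSO libraries, of which 4 and 6 are thymus-like. Ly6c2 was 137.99 TPM in DMSO 4, against 55.0 to 68.7 TPM in the other DMSO libraries. Outside the main comparisons, all 3 thymus-like libraries exceeded every control library for Ly6d, from 588.49 TPM upward against at most 61.3 TPM, and for Ly6g, from 1.17 TPM upward against at most 0.63 TPM. For Ly6g the thymus-like and lung ranges overlapped, with silica 2 at 3.04 TPM.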

How the results depend on the processing

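Members called stayed at 0 in all 6 comparisons when any of the 12 lung libraries was left out, and under the alternatives not named here. The count in silica against control was 1 in the fit of only the groups compared, 1 within the long-gene lung libraries, 1 with DESeq2's Wald test and 3 with limma-voom, against 0; in DMSO against control it was 1 with DESeq2 and 4 with limma-voom, and in the averaged silica effect 1 with DESeq2. Genes called in silica against control numbered 2, 41, 48, 148 and 1334 under edgeR on 12 lung libraries, its 7-library fit, the long-gene fit, DESeq2 and limma-voom, and in DMSO against control 0, 60 and 8474 with edgeR, DESeq2 and limma-voom. With 1 library left out, the Ly6i fold change in silica against control, the contrast of the choice, ran from 4.2 to 4.64 (log2). That of Ly6a ran from -0.20 to 0.56, of Ly6c1 from -0.19 to 0.59 and of Ly6d from 0.02 to 0.65. In DMSO against control the sign turned for Ly6a (-0.10 on either TPM scale, -0.057 with the length offset), Ly6c1 (-0.0198 with all 15 libraries, -0.48 on TPM, -0.46 with the offset) and Ly6e (-0.75 on TPM, -0.0574 with the offset); leaving out a library gave Ly6e -0.14 to 0.38, the low end without DMSO 4. The median of all genes in that comparison was -0.68 on log2(TPM + 0.1), and -0.75 in silica_DMSO against silica. There Ly6i turned to -0.19 on TPM and -0.13 with the offset, and ran from -0.55 to 2.0 with 1 library left out; in silica_DMSO against DMSO it ran from -0.34 to 3.88. The labels do not say whether their number pairs libraries. Of 8 same-numbered pairs the correlations of deviations from group means ran from -0.46 to 0.39, with 3 over 0.1. Deviations from means of so few libraries, which also differ in the short-gene class, cannot decide it. With that number as a replicate block no member was called, and Ly6i was 4.45 in silica against control, -0.94 in silica_DMSO against DMSO and -0.96 in silica_DMSO against silica. With thymus-like libraries in the mean, Ly6d was 503 TPM in silica_DMSO and 195 TPM in DMSO, and Ly6i 131 TPM in silica_DMSO. The cause of these shifts was not tested. Ly6g, at 0 to 40 counts, is limited by depth.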
